A study of Homo sapiens with 12 samples.

Results

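The genes described here are 9 genes of cellular iron uptake, storage, export and iron sensing in human embryonic stem cells (hESCs) of the line WA26. They were taken by symbol from a table of 28278 genes. The rule holds no measured value, but the list was drawn up with earlier results of these data known. The members are TFRC, STEAP3 and SLC11A2 for uptake, FTH1, FTL and NCOA4 for storage and its release, SLC40A1 for export, and IREB2 and ACO1 for iron sensing. All 9 members were found, and all passed the filter on low counts, as did 15916 genes in all. RNA sequencing was compared in 4 groups of 2 libraries. WT cells and UBQLN1 knockout (KO) cells were kept at normal O2 without treatment, KO cells were kept at 5% O2, and KO cells were given NAC. N-acetyl-L-cysteine (NAC) is a thiol antioxidant, and UBQLN1 encodes ubiquilin 1, which carries ubiquitinated proteins to the proteasome. KO cells were stable lines made with CRISPR/Cas9 and grown from clones, and the clone behind each library is not named in the labels. The labels give no dose or duration of NAC. The study's scheme describes treatment over passages before harvest, and its text names a shorter culture for cells at 5% O2. The treatments may therefore differ in length. The scheme also names DMSO as the negative control, and the labels of the untreated KO libraries name no vehicle or passage. Vehicle and passage therefore cannot be told apart from NAC. Libraries of WT cells with NAC or at low O2 were not analysed here, so no effect of a treatment can be set against the same effect in WT cells.

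Cells take up iron bound to transferrin through the transferrin receptor. The iron is reduced in the endosome by the STEAP3 reductase and moved to the cytosol by the transporter DMT1, the product of SLC11A2. Iron that is not used is stored in ferritin, a shell of heavy (FTH1) and light (FTL) chains, and NCOA4 delivers ferritin to the lysosome when iron is needed. Ferroportin, the product of SLC40A1, is the known iron exporter of vertebrate cells. The iron regulatory proteins, encoded by ACO1 and IREB2, bind hairpins called iron-responsive elements (IREs) in mRNA when iron is scarce. Binding in the 5′ UTR blocks translation of ferritin and ferroportin, and binding in the 3′ UTR protects the TFRC mRNA from decay. A change in translation would not be seen in counts of mRNA.

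The hairpins are printed because they divide the members into mRNAs controlled at the start and at the end of the transcript. A pattern of an unpaired C, 5 bases, a loop CAGTGN and 5 bases that pair with the first 5 was searched on the sense strand of the canonical GENCODE v44 transcripts (hg38), with G-T pairs allowed. Of 20007 coding transcripts, 0.09497% held it in the 5′ UTR and 0.6098% in the 3′ UTR. It was found once in the 5′ UTR of FTH1, FTL and SLC40A1 and 4 times in the 3′ UTR of TFRC. Capitals mark the unpaired C and the 6 bases of the loop.
FTH1, 5′ UTR, chr11:61967573-61967602, minus strand: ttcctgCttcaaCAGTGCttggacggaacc
FTL, 5′ UTR, chr19:48965335-48965364, plus strand: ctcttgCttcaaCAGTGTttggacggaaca
SLC40A1, 5′ UTR, chr2:189580660-189580689, minus strand: caacttCagctaCAGTGTtagctaagtttg
TFRC, 3′ UTR, chr3:196050978-196051007, minus strand: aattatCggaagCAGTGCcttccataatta
TFRC, 3′ UTR, chr3:196050574-196050603, minus strand: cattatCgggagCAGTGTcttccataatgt
TFRC, 3′ UTR, chr3:196050509-196050538, minus strand: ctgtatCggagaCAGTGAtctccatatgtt
TFRC, 3′ UTR, chr3:196050462-196050491, minus strand: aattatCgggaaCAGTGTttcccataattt
SLC11A2, IREB2, ACO1, NCOA4 and STEAP3 held no match in their canonical transcripts. The search requires perfect pairing and 1 loop sequence, so it says only that these letters are not in those transcripts, and other transcripts of these genes were not searched.

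The libraries held 31236968 to 41639350 counts. UBQLN1 was at 221 and 197 CPM in WT and at 42.3 and 43.5 CPM in KO, a log2 fold change of -2.29 (SE 0.12, adjusted p = 2.52e-06). In the other KO libraries it was at 51.9 and 47.7 CPM at 5% O2 and at 62.4 and 49.3 CPM with NAC. With NAC it was called higher than in untreated KO cells (log2 fold change 0.38, adjusted p = 0.0196 by edgeR's quasi-likelihood test). CPM are counts scaled per library (cpm) to its effective size by TMM, a normalization that assumes most genes do not change. The 8 hESC markers were detected in every group. Their summed level was 6466 to 6742 CPM in untreated KO cells and 4935 to 5576 CPM with NAC. DNMT3B went from 2550 and 2460 to 1140 and 1420 CPM, and L1TD1, NANOG and SOX2 were also lower with NAC. TDGF1 was higher, at 539 and 533 CPM without and 639 and 642 CPM with NAC. POU5F1, LIN28A and PODXL were above the untreated KO libraries in the first NAC library and under them in the second. The first NAC library stood apart in 9 mesenchymal markers, which summed to 973 CPM there and to 547 to 649 CPM in the other libraries. The matrix genes DCN and COL3A1 were at 47.2 and 29.1 CPM in that library, at 0 in the second NAC library and at most at 0.207 CPM in the others. The part of such cells in the results was not tested, and values that rest on the first NAC library are given with and without it. The 5 neural markers summed to 848 to 850 CPM in WT, 1122 to 1128 in untreated KO, 882 to 983 at 5% O2 and 657 to 701 with NAC. Of these, NEUROG2 was at 0 in every library and PAX6 was at most at 0.104 CPM. In these bulk samples, fewer cells of a type and less RNA per cell cannot be told apart.

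Per kilobase of canonical transcript, FTL was the most abundant member, with 1489 ± 59.0 CPM per kb (SD, n = 2) in WT cells. FTH1 followed with 317 ± 5.48 CPM per kb, and TFRC with 49.4 ± 2.73. NCOA4 was at 41.6 ± 1.04 CPM per kb, ACO1 at 28.7 ± 2.41, IREB2 at 26.0 ± 1.92, SLC11A2 at 15.9 ± 0.81, STEAP3 at 6.99 ± 0.33 and SLC40A1 at 0.0414 ± 0.0076. The levels of the neighbours ACO1 and IREB2 overlapped between the WT libraries, and the other neighbours did not overlap. With NAC, TFRC stood at 103 ± 4.61 CPM per kb and NCOA4 at 61.0 ± 7.0, in the same places of the order. The levels of FTH1 and FTL carry a limit of their own. Of the 31-base words of their transcripts, 60.9% and 52.1% also stand elsewhere in the genome, where processed ferritin pseudogenes are known, and 22.9% of those of NCOA4 do. For TFRC, SLC11A2, SLC40A1 and STEAP3 the share was 0. Reads that match several places are left out by the counting program at its default settings, so the levels of both ferritin genes may be undercounted. The 2 ferritin pseudogenes in the table held at most 5 counts in a library. FTH1 overlaps BEST1, which held 3 to 14 counts.

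**Figure D1:**
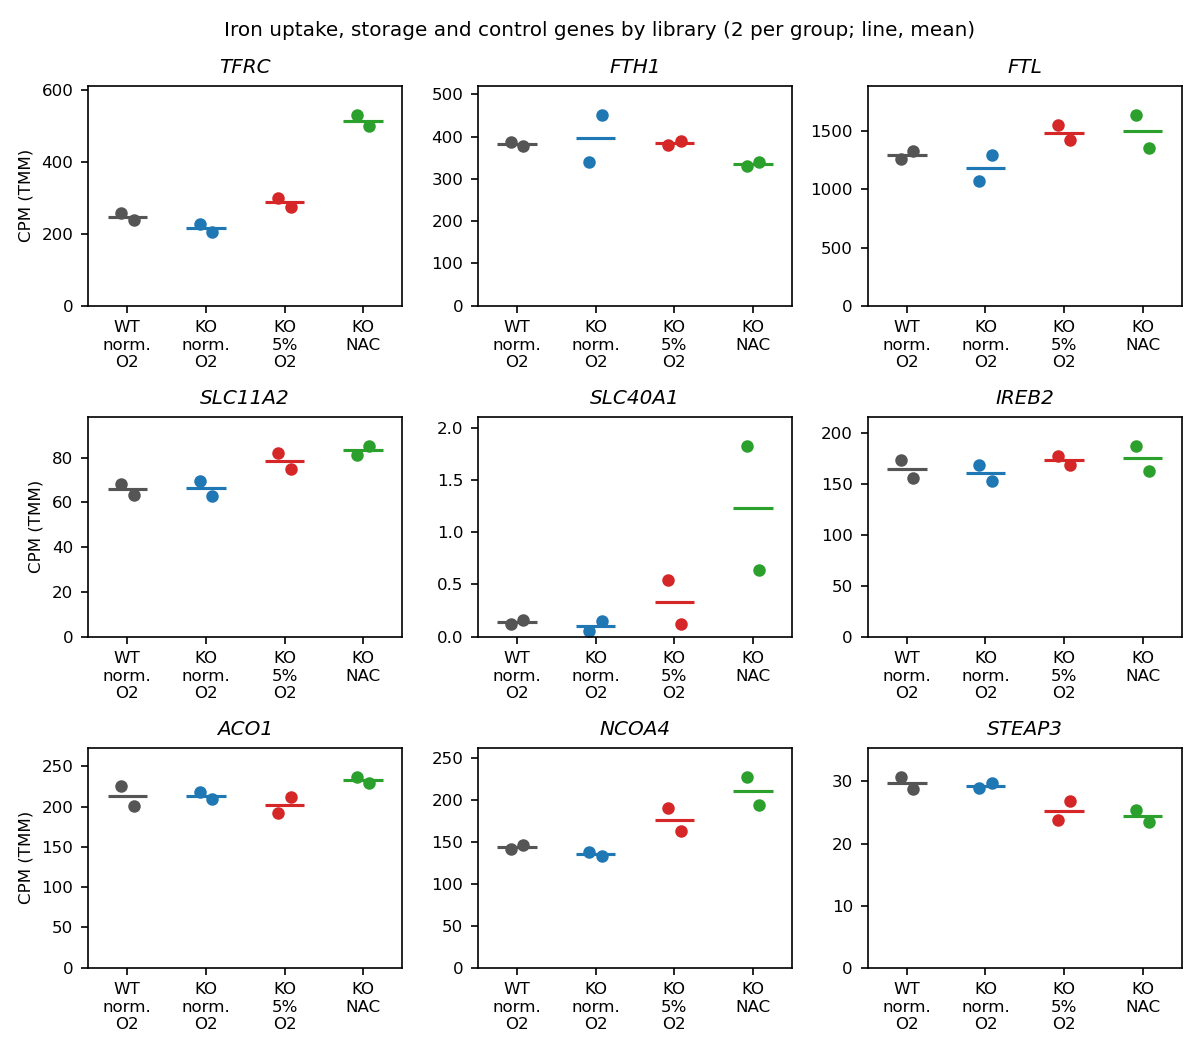
Each panel plots the CPM of 1 gene (vertical axis, starting at 0) in the 8 libraries, with 2 points and their mean (line) for each of the 4 groups; norm. O2 is normal O2. TFRC stood at 500 and 532 CPM in the NAC libraries and at 206 to 300 CPM in the other 6, and the points of FTH1 in untreated KO cells lay far apart, at 339 and 452 CPM.

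Loss of UBQLN1 moved none of the 9 members past the test. By edgeR's quasi-likelihood test, 0 of 9 had an adjusted p under 0.05 and 0 had an unadjusted p under 0.05, and DESeq2 also called 0. Over all genes tested, 1.34% were called higher and 0.622% lower, and 2.57% passed the study's rule of an absolute log2 fold change over 1 with an unadjusted p under 0.05. The median log2 fold change of the members was -0.04, beside -0.0024 over all genes. TFRC was at 257 and 238 CPM in WT and at 228 and 206 CPM in KO, so that its groups did not overlap. Its log2 fold change was -0.19 (SE 0.09, 95% interval -0.39 to 0.0045, adjusted p = 0.294). NCOA4 was also without overlap, at 141 and 146 CPM in WT and at 138 and 134 CPM in KO (log2 fold change -0.08, adjusted p = 0.718). A lack of overlap, here and below, is only a description, since the share of all genes without overlap was not counted. With 2 against 2 libraries, an exact permutation test of such a separation could not go below p = 0.333. The intervals of all members but SLC40A1 lay within -0.39 and 0.30 on the log2 scale. For SLC40A1, at 4 and 6 counts in WT and at 2 and 6 counts in KO, the interval was -2.66 to 1.79, and a change was not detectable at this depth.

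More members were called with NAC than in the other 3 comparisons, and more of all genes were called too. The share of all genes called higher was 1.34% for KO against WT, 3.68% at 5% O2 and 15.5% for NAC against 5% O2. The shares called lower were 0.622%, 4.13% and 13.6%, in that order. Of 9 members, 5 were higher in NAC-treated than in untreated KO cells and 0 were lower, where 23.8% of all genes tested were higher and 20.8% were lower. TFRC, NCOA4, FTL, SLC11A2 and SLC40A1 rose, and the 4 that did not pass were FTH1, IREB2, ACO1 and STEAP3. SLC40A1 passed the filter on low counts only through its NAC libraries, so 4 of the other 8 members were higher. The median log2 fold change was 0.33 over the members and 0.02 over all genes. By the study's rule 2 members passed, TFRC and SLC40A1, where 9.02% of all genes did.

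TFRC encodes the transferrin receptor and lies on chromosome 3 from 196012511 to 196082153. It held 228 and 206 CPM in untreated KO cells and 532 and 500 CPM with NAC. Both NAC libraries were higher than any other library, WT included. TFRC rose 2.38-fold with NAC (95% interval 2.07 to 2.73, log2 fold change 1.25, SE 0.09, adjusted p = 1.28e-05). It also passed the test under all 13 other settings, with log2 fold changes of 1.04 to 1.33.

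Of the other genes of the uptake route, SLC11A2 rose less and STEAP3 did not pass the test. SLC11A2, on chromosome 12 from 50979401 to 51028566, was at 69.6 and 62.8 CPM in untreated KO cells and at 81.0 and 85.3 CPM with NAC. It rose 1.26-fold (log2 fold change 0.33, SE 0.10, adjusted p = 0.0161), and without the second untreated library the call was lost (0.25, adjusted p = 0.163). STEAP3, on chromosome 2 from 119223831 to 119265652, was at 29.0 and 29.7 CPM without and at 25.4 and 23.5 CPM with NAC, a log2 fold change of -0.26 (95% interval -0.51 to -0.01, adjusted p = 0.084). Its groups did not overlap. STEAP3 overlaps the antisense gene STEAP3-AS1, and counting at the default settings does not use strand, so reads from the overlap cannot be told apart.

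The ferritin chains differed from each other. FTL, on chromosome 19 from 48965309 to 48966879, was at 1070 and 1293 CPM in untreated KO cells and at 1644 and 1355 CPM with NAC. It rose by 0.34 on the log2 scale (SE 0.11, adjusted p = 0.0238), but the call was lost without the first NAC library (0.19, adjusted p = 0.186), without the first untreated library (0.21, adjusted p = 0.247) and with only the libraries compared (0.32, adjusted p = 0.0762). FTH1, on chromosome 11 from 61959718 to 61967634, was at 339 and 452 CPM in untreated KO cells and at 330 and 340 CPM with NAC. The NAC libraries overlapped the first untreated library and lay under the second, which was the highest of all 8. The log2 fold change of FTH1 was -0.24 (SE 0.11, 95% interval -0.49 to 0.0074, adjusted p = 0.107). Without the second untreated library it was -0.02 and without the first it was -0.44 (adjusted p = 0.00925), and DESeq2 called it lower (-0.27, adjusted p = 0.0437). Without a filter on low counts it was also called (-0.25, adjusted p = 0.0321).

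NCOA4, the receptor that carries ferritin to the lysosome, lies on chromosome 10 from 46005088 to 46030623. It was at 138 and 134 CPM in untreated KO cells and at 228 and 194 CPM with NAC. Both NAC libraries were above the other 6. NCOA4 rose 1.56-fold (95% interval 1.33 to 1.82, log2 fold change 0.64, SE 0.10, adjusted p = 0.000421) and passed the test under all 13 other settings, with values of 0.35 to 0.75.

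SLC40A1, the ferroportin gene, lies on chromosome 2 from 189560590 to 189583758 and was close to absent in these cells. It held 2 and 6 counts in untreated KO cells and 70 and 19 counts with NAC, or 0.0542 and 0.146 CPM against 1.83 and 0.635 CPM. The log2 fold change of 3.57 had an SE of 0.88 (adjusted p = 0.00579), and the interval of the fold ran from 3.14 to 44.7. The higher of the NAC values was in the library with the high mesenchymal markers. Without that library the log2 fold change was 2.60 (adjusted p = 0.0679), and the part of those cells in the difference was not tested. Without the first untreated library the value was 3.06 (adjusted p = 0.0694).

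The iron regulatory protein genes did not pass the test. IREB2, on chromosome 15 from 78437431 to 78501453, was at 168 and 153 CPM in untreated KO cells and at 187 and 162 CPM with NAC, which overlap (log2 fold change 0.12, 95% interval -0.09 to 0.34, adjusted p = 0.347). ACO1, on chromosome 9 from 32384603 to 32454769, was at 218 and 210 CPM and at 237 and 229 CPM (log2 fold change 0.13, 95% interval -0.07 to 0.32, adjusted p = 0.281). Its groups did not overlap. The activity of these proteins depends on iron and on their stability, neither of which counts of mRNA measure.

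**Figure D2:**
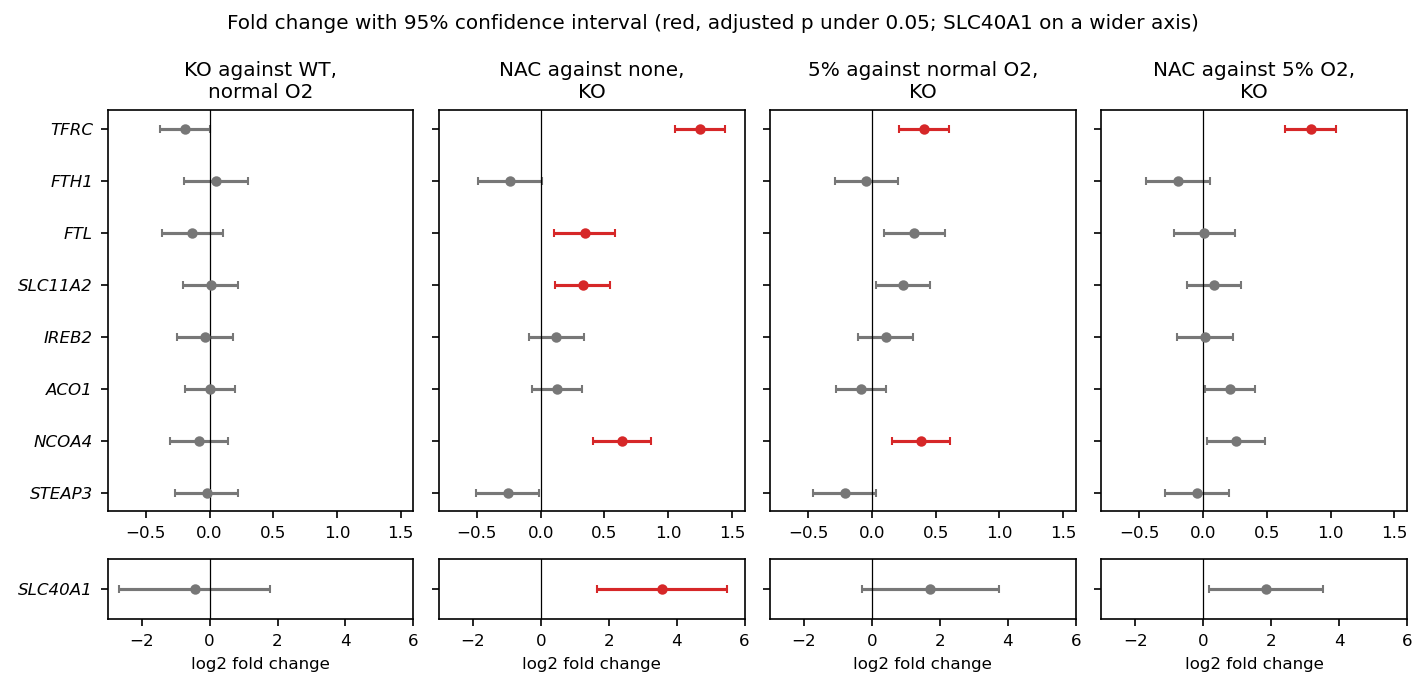
Points are log2 fold changes with 95% confidence intervals for the 9 genes in 4 comparisons, and SLC40A1 has a wider axis of its own in the lower row. Red marks an adjusted p under 0.05, which no gene reached for KO against WT, 5 reached with NAC, 2 at 5% O2 and 1 for NAC against 5% O2.

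At 5% O2 TFRC and NCOA4 were higher than at normal O2 and 0 members were lower. Over all genes tested, 3.68% were called higher and 4.13% lower. By the study's rule 0 members passed, where 2.02% of all genes did. TFRC was at 300 and 276 CPM at 5% O2, above both untreated KO libraries, and rose 1.33-fold (log2 fold change 0.41, SE 0.09, adjusted p = 0.0231). NCOA4 was at 191 and 163 CPM and rose 1.30-fold (log2 fold change 0.38, SE 0.10, adjusted p = 0.0462). Neither call held when any of the 4 libraries of this comparison was left out. Such a fit leaves a lone library in a group, and fewer of all genes were called in it too. The log2 fold changes were then 0.33 to 0.48 for TFRC and 0.26 to 0.49 for NCOA4.

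FTL was at 1552 and 1427 CPM at 5% O2, without overlap with the untreated KO libraries (log2 fold change 0.33, SE 0.11, adjusted p = 0.0849). DESeq2 called it higher (adjusted p = 0.022). SLC11A2 was at 81.9 and 74.9 CPM (log2 fold change 0.24, adjusted p = 0.145), and FTH1 was at 379 and 389 CPM, between both untreated libraries (-0.04, adjusted p = 0.856). STEAP3 was at 23.7 and 26.9 CPM (-0.21, adjusted p = 0.269), IREB2 at 177 and 168 CPM (0.11, adjusted p = 0.551) and ACO1 at 192 and 211 CPM (-0.08, adjusted p = 0.613). SLC40A1 held 22 and 4 counts (1.71, adjusted p = 0.276), and its libraries overlapped those at normal O2.

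Hypoxia-inducible factors bind DNA at the core ACGTG or GCGTG, and TFRC is known as one of their targets. In RefSeq promoters (GRCh38.p14, 250 bases before to 50 after each start, both strands), ACGTG stood in 21.4% and GCGTG in 36.5% of 35116 promoters. Of the members called at 5% O2, TFRC held ACGTG once, and neither of the 2 NCOA4 promoters held either core. Of the members not called, FTL held ACGTG once and GCGTG 2 times, and GCGTG also stood in 3 of the 4 SLC11A2 promoters, in that of ACO1 and in 1 of the 2 of IREB2. The promoters of SLC40A1 and STEAP3 held neither core. The stretch around the TFRC match is shown with the core in capitals, 88 to 84 bases before the start used for the RefSeq promoter. That start lies inside the GENCODE span given above for TFRC, so the stretch reaches into that span.
TFRC promoter, chr3:196082146-196082206, minus strand: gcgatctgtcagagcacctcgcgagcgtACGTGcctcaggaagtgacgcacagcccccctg
A match is a description of the letters, and binding was not measured.

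Between both treatments of KO cells, TFRC alone passed the test, before any removal of the length and GC trend described below. It was at 532 and 500 CPM with NAC against 300 and 276 CPM at 5% O2 (log2 fold change 0.84, SE 0.09, adjusted p = 0.000253). Over all genes 15.5% were higher with NAC and 13.6% were lower. NCOA4 was higher with NAC without overlap (log2 fold change 0.26, adjusted p = 0.0863), and SLC40A1 alone passed the study's rule (1.85, adjusted p = 0.0903), where 4.42% of all genes did. For FTL the difference was 0.01 with an interval of -0.23 to 0.25. The comparisons with NAC and with 5% O2 share the untreated KO libraries, and this one shares the treated libraries with both.

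Ratios of counts within a library do not depend on its total. The library ratio of TFRC to FTH1, receptor against ferritin heavy chain, was 0.665 and 0.631 in WT, 0.672 and 0.455 in untreated KO, 0.791 and 0.709 at 5% O2 and 1.61 and 1.47 with NAC. The NAC libraries were above the other 6, and both 5% O2 libraries were above all WT and untreated KO libraries. NCOA4 against FTH1 followed the same order of groups, with 0.406 and 0.296 in untreated KO, 0.503 and 0.419 at 5% O2 and 0.692 and 0.571 with NAC. The ratio of the heavy to the light ferritin chain was 0.317 and 0.350 in untreated KO, above all other libraries, and 0.201 and 0.251 with NAC. The ratios are given as values with no test, and an exact permutation test of 2 against 2 libraries could not go below p = 0.333.

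**Figure D3:**
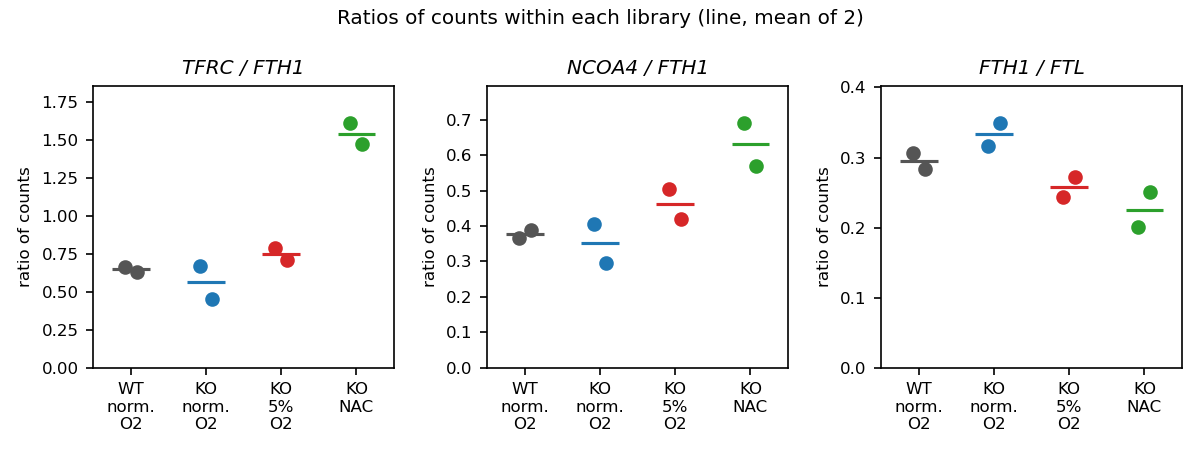
Each panel plots a ratio of counts of 2 genes within a library (vertical axis, no unit, starting at 0), with 2 points and their mean for each group. The ratio of TFRC to FTH1 was 1.47 and 1.61 with NAC and at most 0.791 in the other 6 libraries.

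Fold changes with NAC were related to transcript composition across all genes. Over 15024 genes with known transcripts, Spearman's rho between GC content and the log2 fold change was -0.50 for NAC and -0.34 for 5% O2. For KO against WT it was 0.145, of the opposite sign. With transcript length, rho was 0.231 for KO against WT, -0.255 for NAC and -0.251 for 5% O2. These are descriptions across genes, which are not replicates. The transcripts of TFRC (40.9% GC), SLC11A2 (43.1%) and NCOA4 (42.7%) are poorer in GC than those of FTL (56.0%), STEAP3 (56.8%) and FTH1 (49.96%). When the smooth dependence of every library's counts on the length and GC content of transcripts was taken out, TFRC still rose with NAC (log2 fold change 1.04, adjusted p = 6.03e-05) and so did NCOA4 (0.35, adjusted p = 0.0171) and SLC40A1 (3.18, adjusted p = 0.0224). FTL (0.13, adjusted p = 0.338) and SLC11A2 (0.16, adjusted p = 0.189) were no longer called. FTH1 was then lower (-0.62, adjusted p = 0.00309) and ACO1 higher (0.40, adjusted p = 0.00356). STEAP3 changed sign, to 0.21 (adjusted p = 0.175), and IREB2 to -0.13 (adjusted p = 0.256). At 5% O2, TFRC kept its call (0.35, adjusted p = 0.033) and NCOA4 did not (0.27, adjusted p = 0.168). For NAC against 5% O2, ACO1 was then also called higher (0.32, adjusted p = 0.0152) and FTH1 lower (-0.41, adjusted p = 0.0328). Whether the trend came from the cells or from the libraries was not tested.

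**Figure D4:**
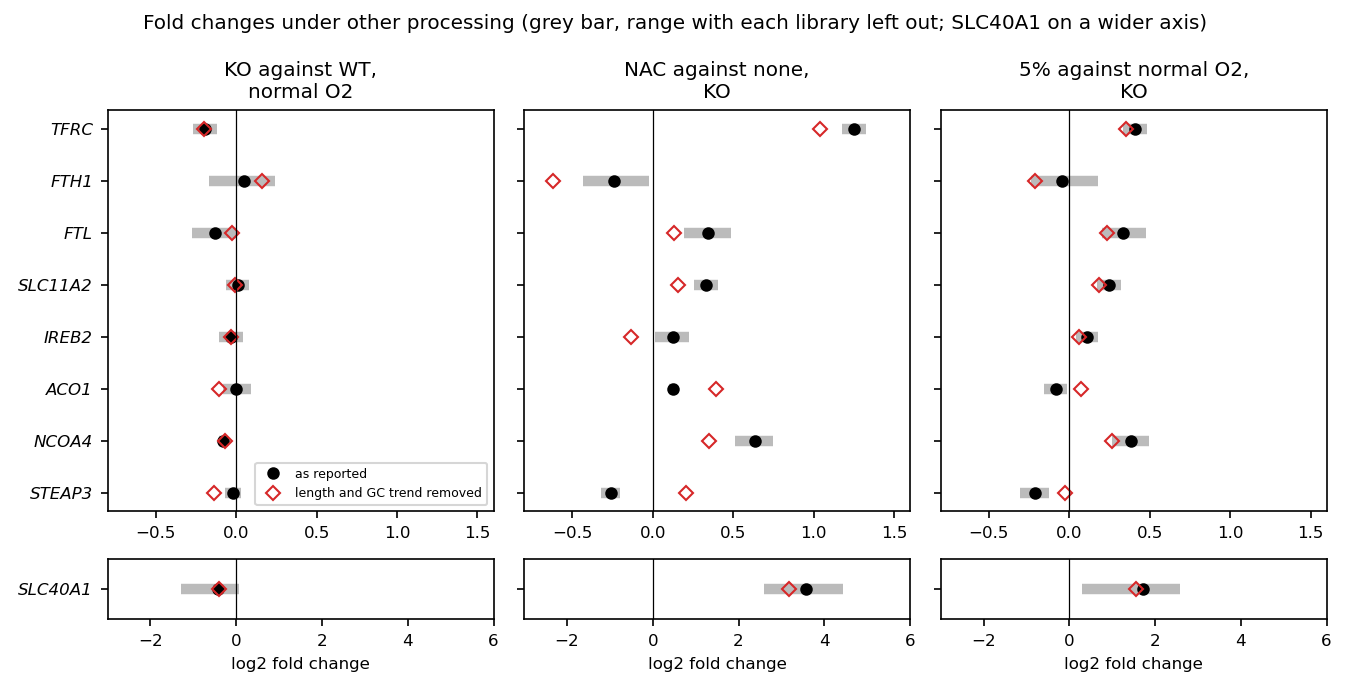
Black points are the log2 fold changes as reported, red diamonds those with the length and GC trend taken out, and grey bars the range when each of the 4 libraries of a comparison was left out, for 3 comparisons with SLC40A1 on a wider axis. With NAC, TFRC moved from 1.25 to 1.04 and FTH1 from -0.24 to -0.62, while STEAP3 and IREB2 crossed 0.

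Other genes of iron metabolism were followed in 3 lists. Of 32 other iron handling genes 24 passed the filter on low counts, and all of 25 genes of iron-sulfur cluster assembly and 18 haem genes did. In KO against WT, 0 of the 24 iron handling genes were called by edgeR (1 higher and 1 lower at an unadjusted p under 0.05, and 2 called by DESeq2), and 0 of the haem genes were (1 higher and 5 lower at an unadjusted p under 0.05). LYRM4, a subunit of the cysteine desulfurase complex that supplies sulfur to the clusters, was the 1 assembly gene called. The list median was -0.19, and an unadjusted p under 0.05 was seen for 8 lower genes and 1 higher gene. The share of all genes at this unadjusted cut was not counted, so the unadjusted counts of the 3 lists have no background here. With the length and GC trend removed, the assembly median was -0.13. Then 0 assembly genes were higher and 1 was lower, where 0.553% of all genes were higher and 0.679% lower. LYRM4 was at 64.6 and 75.4 CPM in WT and at 49.5 and 49.6 CPM in KO, and fell by 0.50 on the log2 scale (adjusted p = 0.0263). Its call was lost without the second WT library (-0.38, adjusted p = 0.247) or either KO library (-0.49 and -0.50, adjusted p = 0.263 and 0.198).

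With NAC, 12 of 25 assembly genes were higher and 2 were lower, with a median log2 fold change of 0.38, where 23.8% of all genes were higher and 20.8% lower with a median of 0.02. After the length and GC trend was removed, 5 were higher and 2 lower, with a median of 0.10, where 13.1% of all genes were higher and 11.3% lower. NFU1, a carrier of finished clusters in mitochondria, was at 17.6 and 19.9 CPM without and at 44.3 and 40.5 CPM with NAC (log2 fold change 1.18, adjusted p = 2.1e-05). CIAO2A, of the cytosolic assembly route and known for its link to ACO1, was at 53.6 and 66.8 CPM without and at 117 and 104 CPM with NAC (0.88, adjusted p = 0.000149). NDOR1, an electron donor of the same route, fell by 0.90 on the log2 scale (adjusted p = 0.000506). With the trend removed, NFU1 was at 0.32 (adjusted p = 0.0397), CIAO2A at -0.03 (adjusted p = 0.855) and NDOR1 at -0.10 (adjusted p = 0.577).

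The shares of the 24 iron handling genes called with NAC were close to those of all genes, with 6 higher and 5 lower against 23.8% and 20.8%, and their median was 0.08. HERC2, a ubiquitin ligase with partial copies in the genome, was at 101 and 68.2 CPM without and at 22.7 and 27.1 CPM with NAC (log2 fold change -1.76, adjusted p = 3.55e-05). With the length and GC trend removed, HERC2 was at -0.88 (adjusted p = 0.00357). CYBRD1, a ferric reductase, was at 5.10 and 5.37 CPM without NAC and at 29.4 CPM in the first and 6.11 CPM in the second NAC library (1.77, adjusted p = 0.0115). Its high value was again in the library with the mesenchymal markers, and without that library the log2 fold change was 0.22 (adjusted p = 0.445). The call was also lost without either untreated library (1.73 and 1.80, adjusted p = 0.0746 and 0.0665). BMP6, an inducer of hepcidin in the liver, was under 5 CPM in both groups, at 4.20 and 3.62 CPM without and 1.59 and 2.07 CPM with NAC (-1.10, adjusted p = 0.00373).

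Of 18 haem genes 4 were higher and 1 was lower with NAC, beside 23.8% and 20.8% of all genes. With the trend removed, 5 were higher and 3 lower, beside 13.1% and 11.3%. UROD, an enzyme of haem synthesis, was at 82.4 and 86.8 CPM without and at 130 and 128 CPM with NAC (log2 fold change 0.61, adjusted p = 0.000634), and UROS, which acts just before it, rose by 0.67 (adjusted p = 0.00221). HMOX1, the inducible enzyme that breaks down haem and frees its iron, was at 29.6 and 32.3 CPM without and at 18.6 and 24.5 CPM with NAC (-0.53, adjusted p = 0.0133). The call was lost without the second untreated library (-0.46, adjusted p = 0.0978) or the first NAC library (-0.34, adjusted p = 0.0803).

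At 5% O2, 3 assembly genes were higher and 0 were lower by edgeR, where 3.68% of all genes were higher and 4.13% lower. At an unadjusted p under 0.05, 7 were higher and 1 was lower, a cut at which the share of all genes was not counted. After the trend was removed, 0 assembly genes and 0 iron handling genes were called, and 1 haem gene was lower. Of all genes, 1.28% were then higher and 0.364% lower. ISCA1 was at 59.4 and 63.8 CPM at normal O2 and at 101 and 96.4 CPM at 5% O2 (log2 fold change 0.68, adjusted p = 0.0038), and LYRM4 was at 49.5 and 49.6 CPM against 68.0 and 67.4 CPM (0.45, adjusted p = 0.0221). CIAPIN1 rose by 0.36 (adjusted p = 0.0374). Among iron handling genes the metal transporter SLC39A8 rose by 0.45 (adjusted p = 0.0167) and HERC2 fell by 0.89 (adjusted p = 0.0205). With the trend removed these values were 0.32 (adjusted p = 0.0683) and -0.47 (adjusted p = 0.173). The haem exporter FLVCR1 was at 95.3 and 90.0 CPM at normal O2 and at 66.0 and 64.0 CPM at 5% O2 (-0.51, adjusted p = 0.0145). FLVCR1 kept its call with the trend removed (-0.47, adjusted p = 0.0329). Each of these 6 calls at 5% O2 was lost when the first untreated or the first 5% O2 library was left out. Those fits leave a lone library in a group, and fewer of all genes were called in them too. FLVCR1 was higher with NAC than at 5% O2 (0.69, adjusted p = 0.000729). In that comparison 6 iron handling genes were higher and 3 lower, 9 assembly genes were higher and 2 lower, and 4 haem genes were higher, where 15.5% of all genes were higher and 13.6% lower. With the trend removed, 3 iron handling genes were higher and 2 lower, 4 assembly genes were higher and 1 lower, and 4 haem genes were higher. Of all genes, 7.33% were then higher and 7.99% lower.

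**Figure D5:**
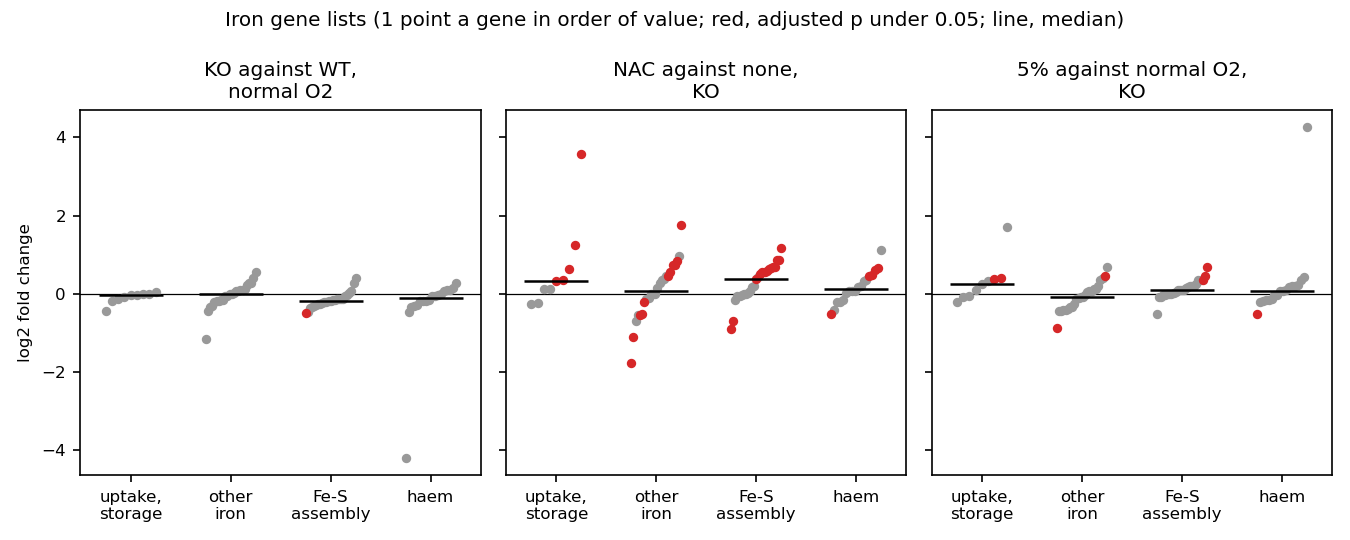
Points are the log2 fold changes (vertical axis) of the genes of the 4 lists in order of value, red with an adjusted p under 0.05, and lines are the list medians, in 3 comparisons. With NAC, 12 of 25 Fe-S assembly genes were higher; the far grey points of the haem list for KO against WT and for 5% O2 are HMOX2, whose level in WT was 6.97 CPM with an SD of 9.35.

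Across the 8 libraries, the genes whose log2 CPM were most like TFRC were SLC31A1 (Pearson r = 0.998), API5 (0.997) and PPA1 (0.996). For NCOA4 the closest was ZDHHC20 (0.992), for FTL KATNAL2 (0.988), for SLC11A2 SETD9 (0.985), for IREB2 PDCD4 (0.986), for FTH1 NPAS3 (0.982), for SLC40A1 PLSCR1 (0.985), for STEAP3 TECPR2 (0.976) and for ACO1 SLC39A11 (0.960). These are descriptions over 4 groups of 2 libraries that share their group differences.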

How the data were processed

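Total RNA of WA26 hESCs was sequenced from TruSeq libraries. Reads were checked with FastQC 0.11.9 and trimmed, and the authors mapped them with HISAT2 (build hg38), summed them over genes with featureCounts and used DESeq2 for their own tests. The deposited unit is the raw count. The annotation used for counting is not given in the sources used here. The labels describe 12 samples, of which 8 libraries in 4 groups were analysed. The study calls the libraries of a group biological replicates where it describes the 5% O2 comparison, and the sources used here do not say whether they came from separate cultures or clones, so p-values measure only the spread between these libraries. Replicates differed by more than sampling noise (chi-square per degree of freedom 9.59 to 31.2).

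Low genes were removed with filterByExpr of edgeR 4.0.16 in R 4.3.3, at a minimum count of 10. TMM factors scaled the libraries, and glmQLFTest was the test, with 1 term per group and 4 residual degrees of freedom, with Benjamini-Hochberg adjustment over 15916 genes. The biological coefficient of variation was 13.7%. SEs were calculated back from the log2 fold change and the F statistic of that test. Symmetric 95% confidence intervals were built from them on the log2 scale. Neither was checked for genes as low as SLC40A1. Positions and transcripts come from GENCODE v44 (hg38), promoters from RefSeq (GRCh38.p14), where 8 of the 9 members had an entry and FTH1 had none. The alternatives were DESeq2 1.42.0, RLE and upper quartile factors, 2 filters, 2 replicate blocks, only the libraries compared, each library left out, the study's call rule, and removal of a length and GC trend (mgcv 1.9.3; both properties were known for 94.4% of tested genes). All members are named, and from each list at most the 3 largest changes with an adjusted p under 0.05. Marker lists of mesoderm, endoderm, blood and trophoblast cells summed to at most 13.1 CPM in any library. Members and lists were chosen with earlier results of these data known. On simulated counts of the NAC comparison, 173 of 200 changed genes were recovered and 18 unchanged genes were called among 15690 tested. The changed genes were drawn from genes with ample counts and moved by 1 on the log2 scale. The recovery therefore does not cover smaller changes or genes as low as SLC40A1. A GC trend added to the simulation raised those false calls to 6350 in the uncorrected fit, as used for the calls reported here. In the fit with the trend taken out there were 15, and 171 and 172 of the 200 were found. The size of the added trend was chosen and its sign was opposite to that seen with NAC. The number of false calls in these data is not known from it.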

Additional observations from a re-analysis of the deposited data

How the results depend on the processing

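With 2 libraries a group, the spread between replicates limits every value, and leaving 1 out leaves a lone library that is assumed to vary like the others. At 5% O2, fewer of all genes were also called when any of the 4 libraries compared was left out. TFRC and NCOA4 with NAC kept their calls under all 13 settings each. The number of members called with NAC (5) was 2 by the study's rule and 3 to 5 with a library left out, 3 without the first NAC library. At 5% O2 it (2) was 0 by the study's rule, 1 with the length and GC trend removed and 0 to 0 with any of its 4 libraries left out, where the fit has fewer samples. For NAC against 5% O2 it (1) was 2 with no filter on low counts (SLC40A1 added), 3 with the trend removed, and 1 to 3 with a library left out, 3 without the second NAC library. Over all genes, DESeq2 called 3.71% higher and 2.11% lower in KO against WT. Of the other iron genes, those called in KO against WT (0) were 2 by DESeq2 and with no filter and 1 with only the libraries compared. With NAC (11) they were 3 by the study's rule, 7 with the trend removed and 7 to 13 with a library left out, 7 without the first untreated KO library. At 5% O2 (2) they were 0 by the study's rule, 4 with only the libraries compared, 0 with the trend removed and 0 to 2 with a library left out, 0 without the first untreated or the first 5% O2 library and 1 without the second untreated library. For NAC against 5% O2 (9) they were 1 by the study's rule, 5 with the trend removed and 3 to 11 with a library left out, 5 without the first and 3 without the second 5% O2 library.

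Changes of sign were seen only for members that had not passed the test. In KO against WT, SLC11A2 went to -0.018 with upper quartile factors and -0.0067 with the trend removed, and ACO1 to -0.00021 by DESeq2, -0.00034 with RLE factors, -0.024 with upper quartile factors and -0.11 with the trend removed. With a library left out the ranges crossed 0 for FTH1 (-0.17 to 0.24), SLC11A2 (-0.066 to 0.081), SLC40A1 (-1.30 to 0.074), IREB2 (-0.11 to 0.043), ACO1 (-0.081 to 0.091) and STEAP3 (-0.069 to 0.027). With NAC and the trend removed, IREB2 went to -0.13 and STEAP3 to 0.21. At 5% O2, ACO1 went to 0.071 with the trend removed and FTH1 ranged from -0.24 to 0.18 with a library left out. For NAC against 5% O2, FTL went to -0.018 by DESeq2, with RLE and with upper quartile factors, -0.024 with only the libraries compared and -0.099 with the trend removed, and IREB2 to -0.011 by DESeq2 and with RLE factors, -0.012 with upper quartile factors, -0.018 with only the libraries compared and -0.20 with the trend removed. SLC11A2 went to -0.028 and STEAP3 to 0.23 with the trend removed, and the ranges with a library left out were -0.14 to 0.14 for FTL, -0.095 to 0.12 for IREB2 and -0.14 to 0.045 for STEAP3. The cause of these moves was not tested.

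No pairing by replicate number was seen over all genes tested: deviations of same-numbered libraries correlated at -0.0226 to 0.0816. A pairing that touches few genes would not show in these values. With the replicate block, 0, 5, 2 and 1 members were called in the 4 comparisons (KO, NAC, 5% O2, NAC against 5% O2), and the block within genotype, centred after seeing the data, gave 0, 5, 2 and 1.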
